A study of Mus musculus with 4 samples.

Results

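The axon guidance genes examined here are the semaphorins, plexins, neuropilins, plexin domain proteins, ephrins, Eph receptors, Slits, Robos, netrins and Unc5 receptors. They were chosen by a fixed pattern of gene names, with earlier results of these data known. The pattern found 90 of the 55681 probes on the array, for 70 of its 36282 gene names. The cells were adipocyte progenitors, from which fat cells form. They were isolated by flow sorting from the subcutaneous depot of FVB males aged 4 weeks, received no treatment and were lysed without culture. One group of 2 samples was wild-type and the other group of 2 samples was Adamts1 transgenic, that is, from mice carrying a transgene for a secreted metalloprotease, with 1 single-colour array per sample. Which promoter drives the transgene, which cells express it, and whether each sample is 1 mouse or a pool are not told by the labels. Separate animals are therefore not assured, and a p-value reflects the spread among these 4 arrays, which may be technical.

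Guidance cues were first described for steering growing axons, and the same ligands and receptors act on vessels, immune cells and mesenchymal cells. Class 3 semaphorins are secreted and bind a neuropilin that pairs with a plexin, the signalling subunit, whereas classes 4 to 6 span the membrane and bind plexins directly. Ephrins stay on the cell surface and signal through Eph receptor kinases on the neighbouring cell, Slits are secreted ligands of Robo receptors, and netrins are laminin-related secreted cues read by Dcc, neogenin and Unc5 receptors.

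The arrays differed in how much they could measure. Wild-type array 1 had 47.0% of its spots well above background, against 55.5% to 57.0% on the other 3, and its lowest signal well above background was the highest of the 4 at -3.40 log2 units, against -4.77 to -4.69. All values below are log2 signals relative to the array's own 75th percentile, so a value of 0 is that percentile, and a difference is the transgenic mean minus the wild-type mean. Levels of different genes cannot be compared, since each probe binds with its own strength. All 8 markers of adipocyte progenitors, Pdgfra, Ly6a and Cd34 among them, were well above background on all 4 arrays. Of these 8, 2 had a difference above 0 and 6 below. Pi16 alone was called, lower (difference -1.13 ± 0.14 SE, n = 2 per group, adjusted p = 0.0296), against 1.01% of all features called lower. The summed linear level of the 8 was 3674 and 3020 in wild-type and 2298 and 2287 in transgenic samples. Dcn and Pi16 made up 69.1% to 74.6% of it, so the sum mostly follows these 2 genes. Such a sum weighs each gene by the strength of its probe. Adamts1 itself had a difference of 0.13 ± 0.10 (adjusted p = 0.510), and nothing in the labels tells whether its probe lies within the transgene. With 2 arrays per group exact permutation of the array labels for 1 gene cannot give a p below 0.333, so tests rest on a limma fit that shares the spread over all 21531 features tested, adjusted by Benjamini-Hochberg, with a feature called at an adjusted p under 0.05.

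In the transgenic samples the secreted semaphorin Sema3g, the transmembrane semaphorin Sema5b, the receptor kinase Epha4 and the endothelial guidance receptor Robo4 rose, while the secreted semaphorins Sema3c and Sema3d and the netrin Ntn4 fell. Among the 5 that were well above background on all 4 arrays, Sema3g rose 4.13-fold and Epha4 2.12-fold, while Sema3d fell 2.65-fold, Ntn4 1.88-fold and Sema3c 1.75-fold. These 7 were the called members among 58 tested, 4 higher and 3 lower. Over all features 2.51% were called, 1.5% higher and 1.01% lower. The median difference of the 58 was -0.018, against 0.0006 over all features, with 28 differences above 0 and 30 below. The groups did not overlap for 37 of the 58, or 63.8%, against 53% of all features, and 28 of the 58 had an unadjusted p under 0.05, against 19.4% of all features.

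Most of the 7 calls lie close to the threshold. When each probe of a genomic interval was kept as a feature of its own, an alternative chosen after seeing the data, 3 members were called, Sema3g, Sema3d and Ntn4, and adjusted p of the other 4 lay between 0.0508 and 0.0567. Without transgenic array 1, and likewise without transgenic array 2, 0 members were called by limma, with lowest adjusted p of 0.0547 and 0.0551, although 17 of 61 and 15 of 58 tested members had an unadjusted p under 0.05, as did 2412 of 22271 and 2488 of 22649 features. Without wild-type array 1 there were 12 calls, 6 of them among the 7, where 6.15% of all features were called. Without wild-type array 2 there were 21, all 7 among them, where 17.0% of all features were called. With 1 array left out the variance comes from the intact pair, and the transgenic pair was the closer one, with an SD of the difference between its arrays of 0.334 against 0.544 for the wild-type pair. No direction of the 7 changed in any setting.

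**Figure D1:**
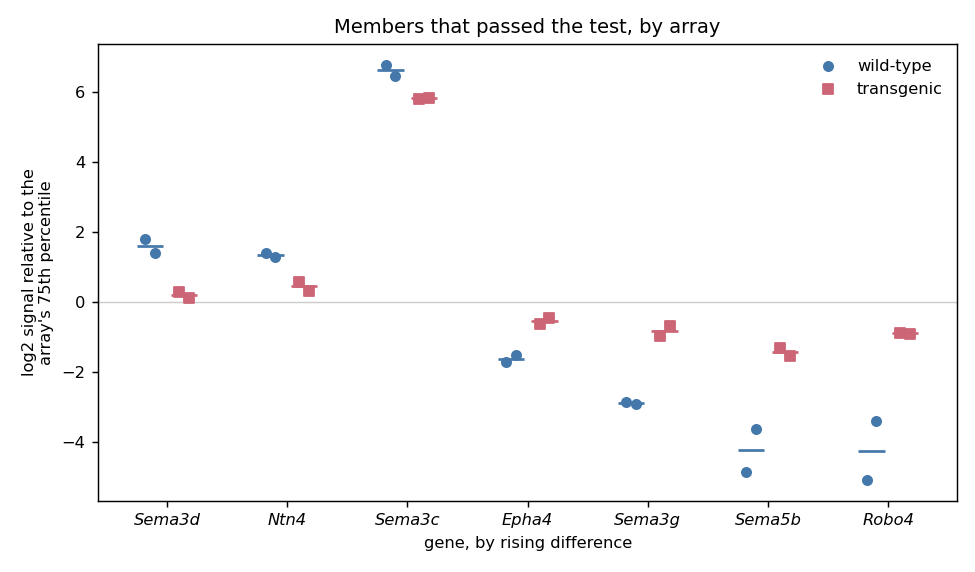
Normalised log2 signal of the 7 called members on each array, with wild-type samples as circles, transgenic samples as squares and horizontal lines at group means. Sema3d, Ntn4 and Sema3c are lower in both transgenic samples than in either wild-type sample, and Epha4, Sema3g, Sema5b and Robo4 are higher in both.

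Promoter sequence is shown for 4 of the called members, because among them are the 3 called class 3 semaphorins, of which Sema3g and the other two moved in opposite directions, and Robo4, the member with the highest difference. Each line gives the 250 bases upstream of the gene's start in RefSeq, build GRCm38.p6, read 5′ to 3′ on the gene's strand, with capitals for any match on either strand to the GC box GGGCGG, the CCAAT box CCAAT, the TATA box TATAAA, the E-box CACGTG or the ETS site CCGGAA.
Sema3g, chr14:31217623-31217872, plus strand: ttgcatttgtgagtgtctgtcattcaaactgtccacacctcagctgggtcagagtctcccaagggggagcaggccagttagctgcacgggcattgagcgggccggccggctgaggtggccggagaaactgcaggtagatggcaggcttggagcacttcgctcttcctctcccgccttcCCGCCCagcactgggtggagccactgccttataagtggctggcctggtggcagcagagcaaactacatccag
Sema3d, chr5:12382916-12383165, plus strand: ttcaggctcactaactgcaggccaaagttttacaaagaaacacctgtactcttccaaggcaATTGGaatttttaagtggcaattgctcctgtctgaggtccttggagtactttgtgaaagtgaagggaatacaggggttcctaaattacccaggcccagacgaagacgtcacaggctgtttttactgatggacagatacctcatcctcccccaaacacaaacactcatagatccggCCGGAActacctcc
Sema3c, chr5:17574566-17574815, plus strand: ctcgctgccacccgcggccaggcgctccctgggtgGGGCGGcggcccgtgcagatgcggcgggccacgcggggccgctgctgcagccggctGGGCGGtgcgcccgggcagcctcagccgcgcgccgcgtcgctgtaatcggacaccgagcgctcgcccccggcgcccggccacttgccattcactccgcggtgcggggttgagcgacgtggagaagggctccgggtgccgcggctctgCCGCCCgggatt
Robo4, chr9:37401722-37401971, plus strand: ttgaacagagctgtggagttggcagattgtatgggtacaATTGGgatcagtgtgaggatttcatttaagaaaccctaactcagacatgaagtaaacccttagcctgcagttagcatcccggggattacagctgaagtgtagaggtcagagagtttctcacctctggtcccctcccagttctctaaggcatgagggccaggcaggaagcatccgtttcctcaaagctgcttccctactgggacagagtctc

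The Sema3c window was rich in CpG, with 39 CpG pairs and 3 GC boxes, whereas the Sema3d window had 4 CpG pairs, 1 CCAAT box and 1 ETS site. Sema3g had 8 CpG pairs and 1 GC box, and Robo4 had 2 CpG pairs and 1 CCAAT box. Over the 32851 windows of the promoter table the median was 6 CpG pairs. A GC box occurred in 32.7% of windows, a CCAAT box in 33.8%, a TATA box in 12.4%, an E-box in 6.02% and an ETS site in 12%. Of the 70 members 59 matched a window by symbol, with 75 windows in all, 53 of which held a GC box and 2 a TATA box. These are matches of letters, and no protein binding was measured.

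Class 3 semaphorins, the secreted ligands of the neuropilins, held 3 of the 7 calls and went in both directions. Sema3g, known from endothelial cells, gave -2.84 and -2.92 in wild-type and -0.98 and -0.69 in transgenic samples. Both transgenic values lay well above both wild-type values, and the rise was 4.13-fold (difference 2.04 ± 0.20 SE, 95% interval 2.91-fold to 5.85-fold, adjusted p = 0.0186). Its probe lies on the plus strand of mm9 at chr14:32043435-32043494. A second Sema3g probe, at chr14:32042510-32042569, was well above background on 1 transgenic array only, with a difference of 0.94. With the mean over both probes the call was lost (1.49, adjusted p = 0.0596), and with normexp background correction the difference was 1.07 with the call kept. The normexp setting adds an offset of 50 to every signal, which also shrinks differences of dim probes.

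Sema3d, a secreted semaphorin known for its part in vessel patterning, gave 1.80 and 1.40 in wild-type and 0.28 and 0.11 in transgenic samples. The groups stood apart by more than the spread within either, and Sema3d fell 2.65-fold (difference -1.40 ± 0.17, adjusted p = 0.0268) by a probe at chr5:12586981-12587040. Sema3c, which is known to act through neuropilins on vascular and neural crest cells, gave 6.78 and 6.47 against 5.80 and 5.84. It fell 1.75-fold (difference -0.81 ± 0.13, adjusted p = 0.0458) by the probe at chr5:17235981-17236040, and its second probe at chr5:17234078-17234137 had a difference of -1.21, so both probes were lower. Without the dim wild-type array 1 the differences were 2.08 for Sema3g, -1.20 for Sema3d and -0.65 for Sema3c, each still called. In other settings with all arrays Sema3c lost its call in 2 of 11 and Sema3d in 1 of 11.

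The other 4 class 3 members did not pass the test. Sema3a, the classical repellent of sensory axons, gave -0.96 and -1.51 in wild-type and -2.53 and -1.97 in transgenic samples (difference -1.01 ± 0.29, adjusted p = 0.148). Its second probe had a difference of -0.46. Sema3e, which binds Plxnd1 without a neuropilin, gave -0.11 and -0.22 against -0.72 and -1.08 (difference -0.73 ± 0.18, adjusted p = 0.111). Sema3b, described as a tumour suppressor, had a difference of -0.42 ± 0.12 (adjusted p = 0.142), and Sema3f one of -0.044 ± 0.198 (adjusted p = 0.927), with overlapping groups and a 95% interval from 0.689-fold to 1.37-fold. Of the 7, then, 6 had a difference below 0, 2 of them called, and Sema3g stood alone above 0. Over all features 1.5% were called higher and 1.01% lower, with 10786 differences above 0 and 10745 below.

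Among the membrane-bound semaphorins Sema5b was called. It belongs to class 5, whose members carry thrombospondin repeats beside the sema domain, and its probe lies at chr16:35664281-35664340. It gave -4.84 and -3.61 in wild-type and -1.30 and -1.53 in transgenic samples (difference 2.81 ± 0.44, adjusted p = 0.0429). Wild-type array 1 was not well above background there, so the rise is given as a bound of at least 4.26-fold on the measured means. This bound carries no sampling error, and the 95% interval of the fit ran from 3.30-fold to 14.9-fold. The bound sets the transgenic mean against the wild-type mean after raising each wild-type array to its detection floor, the dimmest signal that was well above background there. A second probe gave a difference of 2.94, also above background on 1 of 2 wild-type arrays. Without wild-type array 1 the difference was 1.83 (adjusted p = 0.0220), and with normexp correction it was 0.92 with the call kept. In 6 of 10 other settings with all arrays the call was lost. Its class relative Sema5a was not called (difference 0.59 ± 0.12, adjusted p = 0.0795), with 0.17 and 0.24 against 0.86 and 0.72.

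Sema7a, which is anchored to the membrane by a lipid and signals through integrins and Plxnc1, was not called either (difference 1.76 ± 0.37, adjusted p = 0.0839). Its 2 transgenic values, -1.17 and -0.96, lay above the wild-type values of -3.36 and -2.29, the first of which was not well above background. Sema4d, known from leukocytes as CD100, gave -0.32 and -0.56 against -1.55 and -1.36 (difference -1.01 ± 0.17, adjusted p = 0.0539), a gap wider than the spread in either group that missed the threshold. Sema4a and Sema4b had differences of 0.75 ± 0.27 (adjusted p = 0.227) and 0.63 ± 0.18 (adjusted p = 0.147). Transgenic array 1 gave 3.71 for Sema4a, against 2.85 on transgenic array 2. Sema4c differed by -0.032 ± 0.101, with a 95% interval from 0.822-fold to 1.16-fold, and Sema4g by -0.19 ± 0.32.

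None of the 4 class 6 semaphorins was called, nor had any an unadjusted p under 0.05. Their differences ran from -0.088 for Sema6c to 0.46 for Sema6a. Sema6d had probes of opposite sign, 0.12 for the brighter one and -1.25 for the other, so its direction cannot be given. Sema4f was not well above background on any array and was not tested.

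No receptor of the semaphorins was called. Nrp1, the neuropilin that also binds vascular endothelial growth factor, gave 0.42 and 0.97 in wild-type and 1.20 and 1.19 in transgenic samples (difference 0.50 ± 0.19, adjusted p = 0.247). For Nrp2 the values were 1.29 and 0.78 against 1.49 and 1.40 (difference 0.41 ± 0.18, adjusted p = 0.306), and its second probe had a difference of 0.49. The transgenic samples were the higher ones for both neuropilins without overlap, yet the wild-type arrays lay over 0.5 apart in each. Plxnd1, the receptor of Sema3e and known from endothelial cells, gave 3.41 and 3.17 against 3.61 and 3.80 (difference 0.41 ± 0.12, adjusted p = 0.160). Its dimmer probe had a difference of 0.75, and with the mean over both it was called (0.58, adjusted p = 0.0447).

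Among the class A plexins, the usual partners of the neuropilins, Plxna1 differed by -0.010 ± 0.112, with a 95% interval from 0.818-fold to 1.21-fold, Plxna3 by -0.025 ± 0.130 and Plxna2 by 0.25 ± 0.18 (adjusted p = 0.490). Plxna4 was not well above background on wild-type array 1 and differed by -0.037 ± 0.304. Plxnb2, a receptor of class 4 semaphorins, differed by -0.027 ± 0.090, with an interval from 0.840-fold to 1.15-fold. Intervals of this width do not show equality. Plxnb1, Plxnb3 and Plxnc1 failed the filter on signal. Plxdc2, a plexin domain protein that binds pigment epithelium-derived factor, gave 7.53 and 7.25 against 6.95 and 6.97 (difference -0.43 ± 0.12, adjusted p = 0.150), and Plxdc1 was not tested.

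**Figure D2:**
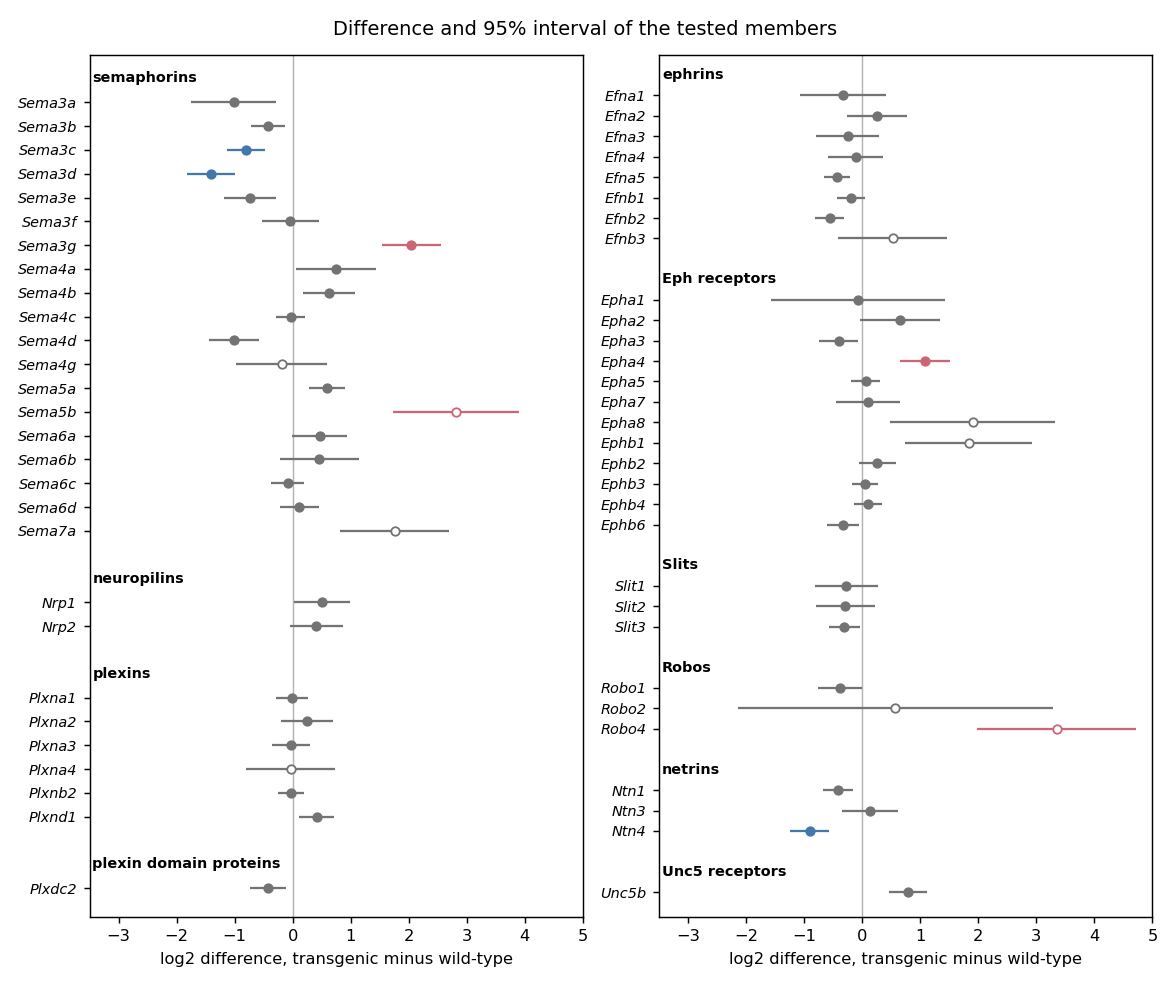
Log2 difference, transgenic minus wild-type, with its 95% interval from the limma fit for the 58 tested members, grouped by family. Red marks called members that rose, blue called members that fell and grey those not called, and open points were not well above background on every array; Plxna1, Plxna3 and Plxnb2 lie close to 0, while the widest interval is that of Robo2.

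No ephrin was called. The transmembrane ligand Efnb2, a marker of arterial vessels and partner of Ephb4, gave 2.37 and 2.39 in wild-type and 1.89 and 1.75 in transgenic samples. That is a difference of -0.56 ± 0.10 (adjusted p = 0.0585), with groups that did not overlap. Its second, dimmer probe had a difference of -0.32. Efna5, a lipid-anchored ligand of EphA receptors, averaged 3.03 ± 0.033 (SD, n = 2) in wild-type and 2.60 ± 0.037 (SD, n = 2) in transgenic samples (difference -0.43 ± 0.09, adjusted p = 0.0768). Both differences were several times the gap between replicates and small in fold, 1.48-fold and 1.35-fold. Differences of the other 6 ephrins ran from -0.34 for Efna1 to 0.53 for Efnb3, with adjusted p from 0.333 upward. Over the 8 ephrins 6 differences were below 0, with a median of -0.22, against a median of 0.0006 over all features.

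Of 12 tested Eph receptors, 1 was called and 9 differences were above 0, with a median of 0.10. Over all features 2.51% were called, and the median was 0.0006. Epha4, a receptor that binds both kinds of ephrin, gave -1.72 and -1.52 in wild-type and -0.61 and -0.46 in transgenic samples, by a probe on the minus strand at chr1:77364339-77364398. It rose 2.12-fold (difference 1.08 ± 0.17, 95% interval 1.57-fold to 2.85-fold, adjusted p = 0.0451). The call was lost in 5 of 11 other settings with all arrays, among them a median shift (1.05, adjusted p = 0.0771) and quantile normalization (1.09, adjusted p = 0.0654). Neither wild-type array had Ephb1 or Epha8 well above background. For Ephb1, a receptor of B-type ephrins, the transgenic values of -3.68 and -2.70 give a bound of at least 1.84-fold on the measured means. The 95% interval of the fit ran from 1.67-fold to 7.62-fold, and Ephb1 was not called (adjusted p = 0.107). With normexp correction its difference was 0.19, so the size of the rise depends on the background correction and the offset of 50 added with it. These 2 were not separated. Epha8 was too dim for a bound and not called (adjusted p = 0.159).

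Several Eph receptors were measured closely and gave small differences. Ephb4, the venous receptor of Efnb2, gave 1.88 and 1.97 against 2.03 and 2.02 (difference 0.097 ± 0.096, 95% interval 0.906-fold to 1.26-fold). Ephb3 differed by 0.047 ± 0.087 and Epha5 by 0.057 ± 0.098. Epha3 and Ephb6 had differences of -0.41 ± 0.13 and -0.33 ± 0.11 (adjusted p = 0.189 and 0.201), and the second, dimmer probe of Ephb6 had the opposite sign at 0.20. Epha1 was the least settled of those above background on all 4 arrays. Its wild-type arrays gave 3.12 and 1.13 and both transgenic arrays lay between, at 2.02 and 2.07. Epha6 and Epha10 were not well above background on any array.

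Slits and Robos gave 1 call, that of Robo4. This receptor of the Robo family is known from vascular endothelium, where it steadies the vessel wall, and its probe lies at chr9:37221547-37221606. It gave -5.08 and -3.40 in wild-type and -0.87 and -0.91 in transgenic samples, the former 1.68 apart and the latter almost equal. Wild-type array 1 was not well above background, so the measured means give a bound of at least 5.69-fold (difference 3.35 ± 0.55, adjusted p = 0.0480). This bound carries no sampling error, and the 95% interval of the fit ran from 3.95-fold to 26.2-fold. The difference was 2.51 without wild-type array 1 (adjusted p = 0.00820), and leaving out the other wild-type array gave 4.19. With normexp correction it was 1.11, still called, and the call was lost in 5 of 10 other settings with all arrays. Robo1, a receptor of the Slits, had a difference of -0.39 ± 0.15 (adjusted p = 0.251), and Robo2 ranged from -5.41 to -1.87 in the wild-type samples alone (difference 0.57 ± 1.09). Robo3 was not above background.

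The 3 Slit ligands all had differences below 0 and none was called. Slit3, a secreted Robo ligand, gave 5.03 and 5.21 against 4.89 and 4.74 (difference -0.31 ± 0.11, adjusted p = 0.212). Slit2 differed by -0.29 ± 0.20 (adjusted p = 0.481) and Slit1 by -0.27 ± 0.22 (adjusted p = 0.535).

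Among the netrins Ntn4 fell. It is a laminin-like protein of basement membranes that binds laminin chains, and it gave 1.41 and 1.30 in wild-type and 0.58 and 0.31 in transgenic samples. The decrease was 1.88-fold (difference -0.91 ± 0.14, 95% interval of the ratio 0.420 to 0.676, adjusted p = 0.0407) by a probe at chr10:93208482-93208540. Without wild-type array 1 it was -0.86 (adjusted p = 0.0543), and the call was lost in 3 of 11 other settings with all arrays, namely quantile normalization with and without normexp correction (adjusted p = 0.0602 and 0.0585) and no intensity trend (adjusted p = 0.105). Ntn1, the founding guidance netrin, gave 1.92 and 1.88 against 1.54 and 1.41 (difference -0.42 ± 0.10, adjusted p = 0.113), and its dimmer probe, also well above background on all 4 arrays, had a difference of -1.08. Ntn3 differed by 0.14 ± 0.19, and Ntn5 was well above background on wild-type array 2 only and was not tested.

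Of the Unc5 receptors, which carry the repulsive response to netrins, Unc5b was the one tested. It gave 0.55 and 0.40 in wild-type and 1.37 and 1.16 in transgenic samples, by a probe on the minus strand at chr10:60225398-60225457. The 1.73-fold difference (0.79 ± 0.13, adjusted p = 0.0502) missed the threshold narrowly, and was called with normexp correction (adjusted p = 0.0381) and with a filter that asked for signal on all 4 arrays (adjusted p = 0.0499). Unc5a, Unc5c and Unc5d failed the filter. Of the 12 members not tested, 7 were not well above background on any array. These are Epha10, Epha6, Plxnb3, Robo3, Sema4f, Unc5c and Unc5d. The other 5 were Ntn5, Plxdc1, Plxnb1, Plxnc1 and Unc5a, each measured on 1 or 2 arrays. Plxnb1 was well above background on wild-type array 1 alone, at -1.90, against -6.73 on wild-type array 2.

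Of the 58 tested members 9 entered the test through the transgenic arrays alone and 0 through the wild-type arrays alone, so the filter favours the count of higher calls. Sema5b and Robo4, both called higher, were among these 9. Of the 49 members above background on all 4 arrays, tested among 18364 such features of which 432 (2.35%) were called, 6 were called, 3 higher and 3 lower. Unc5b was added and Sema5b and Robo4 were not among those tested.

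Ligands and receptors are counted separately because they belong to different sides of the exchange. Of 33 tested ligands 2 rose and 3 fell, and 21 differences were below 0, with a median of -0.19. Of 24 tested receptors 2 rose and none fell, and 16 differences were above 0, with a median of 0.18. Over all features 1.5% were called higher and 1.01% lower, and the median was 0.0006, with 10786 differences above 0 and 10745 below. Whether ligands and receptors differ from each other was not tested, as genes are not replicates.

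Members known from endothelial cells are set apart because vessel cells are another cell type that a sorted fat fraction can hold. Of these 9, Robo4 and Sema3g were called higher, against 1.5% of all features. By the probe used, 7 had a difference above 0 and 2 below, Efnb2 and Efna1. The 7 include Sema6d, whose probes had opposite signs. Of 10 endothelial markers, 8 had a difference above 0 and 1 was called, von Willebrand factor (Vwf, 2.22 ± 0.35, adjusted p = 0.0441). Cdh5, the cadherin of endothelial junctions, gave -5.33 and -4.27 against -2.34 and -2.31 (adjusted p = 0.0503), and Pecam1 gave -1.49 and -1.62 against -0.66 and -0.91. The receptors Kdr and Tek had differences of -0.25 and -0.49. Summed over the 10 markers on a linear scale, where 1 is the array's 75th percentile, the level was 25.7 and 20.4 in wild-type and 20.5 and 19.7 in transgenic samples. Kdr and Tek made up 81.7% to 95.3% of that sum, so it hardly reflects the other 8 markers. By a count that asks for signal from each sample of a group, 5 of the 10 markers passed in wild-type and all 10 in transgenic samples. Cdh5, Flt1, Cldn5 and Tie1 each passed on 1 wild-type array, and Emcn on 0. Cdh5, Flt1 and Cldn5 lay below the detection floor of wild-type array 1, which was the highest of any array at -3.40. In sorted bulk samples more cells of a type and more RNA per cell cannot be told apart, and the part of endothelial RNA in the rise of Robo4 and Sema3g was not tested.

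**Figure D3:**
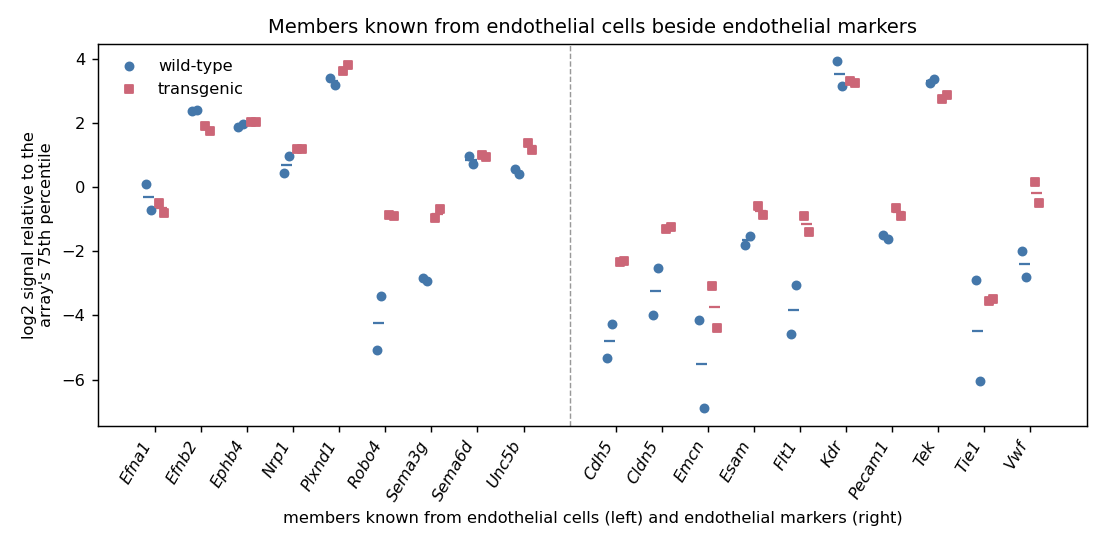
Normalised log2 signal by array of the 9 members known from endothelial cells, left of the dashed line, and of 10 endothelial markers, right of it, with lines at group means. Robo4 and Sema3g are higher in both transgenic samples, as are Cdh5, Flt1 and Vwf, whereas Kdr and Tek are not.

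Members known from leukocytes were fewer, and none was called. Of the 4 tested, Sema4a, Sema7a and Nrp1 had differences above 0 and Sema4d below, while Plxnc1 was not tested. All 4 had an unadjusted p under 0.05, against 19.4% of all features. Of 8 tested markers of macrophages and leukocytes all had differences above 0 and 4 were called higher, Ptprc, Mrc1, Cd14 and Lyz2. Over all features 1.5% were called higher and 1.01% lower. The measured means of Mrc1 gave a bound of at least 6.77-fold, with a 95% interval of the fit from 5.48-fold to 11.6-fold. The summed level of the 9 markers on the array was 11.7 and 9.29 in wild-type and 15.7 and 17.1 in transgenic samples. Csf1r gave 72.4% to 84.7% of it, and Cd163 was not above background on any array. Of 8 pericyte and smooth muscle markers 2 rose, Rgs5 and Acta2, and Kcnj8 fell, with sums of 16.8 and 15.9 against 16.6 and 18.2, of which Mcam gave 65.9% to 69.9%. Of the Schwann cell markers Mbp fell and Cdh19 was not above background on any array. Of the neuronal markers Uchl1 fell, and of the adipocyte markers Plin1 rose. Sums over 5 neuronal markers were 44.9 and 46.5 against 45.0 and 41.0, with Syt1 not above background and Snap25 making up 88.7% to 94.9%. The 5 mature adipocyte markers summed to 1.37 and 0.915 against 2.54 and 3.39, with Lep not above background. Adipoq and Plin1 made up 35.1% to 89.0% of that sum. Cidec was well above background on wild-type array 1 alone and was not tested. It gave -0.53 and -5.72 in wild-type and -5.52 and -5.08 in transgenic samples. The part of these cells in the members' differences was not tested.

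Around the members, 70 genes of the same signalling were followed, of which 64 were tested, 1 rose and 1 fell. Sdc1, a heparan sulfate proteoglycan that binds several guidance cues, rose 1.73-fold, with 0.65 and 0.55 against 1.45 and 1.32 (difference 0.79 ± 0.12, adjusted p = 0.0386). Rgmb, a co-receptor that binds neogenin, fell 1.47-fold, with 2.90 and 2.89 against 2.29 and 2.39 (difference -0.56 ± 0.09, adjusted p = 0.0480). Their share of 3.13% called lay near the 2.51% of all features. With a median shift, with quantile normalization with or without normexp correction, and with no intensity trend, neither was called. The netrin receptor Dcc had a difference of 0.40 ± 0.23 (adjusted p = 0.398), and neogenin (Neo1), another netrin receptor, one of -0.47 ± 0.09 (adjusted p = 0.0612). None of 44 intracellular mediators passed in the limma fit, and 18 of the 44 had an unadjusted p under 0.05, against 19.4% of all features. Srgap3, an effector of Robo receptors, had a difference of 0.98 ± 0.20 (adjusted p = 0.0734). Of the 4 proteases that cut guidance proteins, Adam10, Adam17, Furin and Mmp14, none was called, and 1 had an unadjusted p under 0.05.

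**Figure D4:**
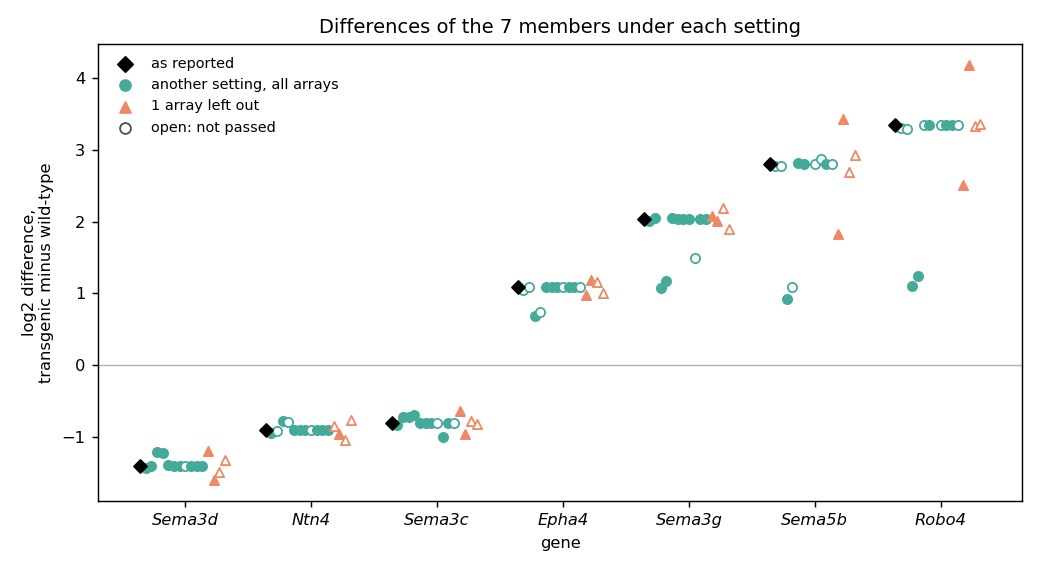
Log2 difference of the 7 called members as reported (diamonds), in 11 other settings with all arrays (circles) and with 1 array left out (triangles), filled where the adjusted p was under 0.05. All differences keep their sign; Robo4, Sema5b and Sema3g shrink to about 1 with normexp background correction, and no member is called without either transgenic array.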

How the data were processed

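The 4 RNA samples were each run on 1 Agilent mouse array in 1 colour (Cy3), per the labels' protocols. The processed spot intensity that the authors deposited is background-subtracted and detrended within each array by Feature Extraction 10.7.3.1, with surrogate values for spots not above background and coordinates on mm9, per the file headers. The log2 value table that the authors deposited was an alternative, with how it was made not given in the sources used here; against the processed signals, scaled and centred per probe on the median, its columns gave correlations of 0.99998 to 0.99999, and their medians were 0.193, -0.0209, -0.0454 and 0.0191.

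Control spots and outlier spots were left out, spots of a probe were averaged as log2, and each array's 75th percentile over probes was subtracted. A gene name was represented by the brightest of its probes on average, and entered the test where both arrays of either group had it well above background. Members kept the gene name of the array design, and other names were updated through RefSeq accessions (26582 probes matched). limma 3.58.1 in R 4.3.3 compared the groups (lmFit, then eBayes with an intensity trend; 2-sided; prior degrees of freedom 3.57, residual 2), and was tested on simulated data. Named genes were all called members and, per family, the 2 tested members with the smallest p; others were chosen after their values were seen. Members and lists were chosen with earlier results of these data known. The number of arrays limits the precision, with a median SE of 0.16 over all features. Exon annotation on mm9 was not used here. Alternatives changed the scaling, background correction, source of values, filter, variance model, probe choice, array set and replicate block. Normexp correction was run on the mean spot signal with an offset of 50.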

Additional observations from a re-analysis of the deposited data

How the results depend on the processing

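Over 31 member genes, all settings that tested them kept the sign of the difference. Of the 336 comparisons in settings with all arrays, 302 kept their side of the threshold, 23 lost a call and 11 gained one. Leaving out 1 array changed 30 of 124, 15 each way. Called members, 7 as reported among 541 called features, numbered 4 with a median shift (411 features), 3 with quantile normalization (373), and 4 with normexp correction and quantile normalization (371). They numbered 1, Sema3g, with no intensity trend (95) and 11 with the replicate block (1080). With interval probes as separate features, an alternative chosen after seeing the data, they numbered 3 (456). They numbered 9 with normexp correction alone (522), 8 with no filter on dim probes (569), 8 with the mean over probes (571), 6 with signal asked for on all 4 arrays (432) and 6 with the deposited value table (510). The cause was not tested. With an array left out, called members ran from 0 to 21 and called features from 82 to 3768. Of the 64 related pathway genes tested, 24 had an unadjusted p under 0.05 in limma with a median shift and 27 with quantile normalization. The number was 28 with both normexp correction and quantile normalization, and 22 with no intensity trend. Over all features these settings gave 4113, 4112, 4071 and 3760 of 21497 to 21531 tested. Related pathway genes called, 2 as reported, numbered 0 in each of these settings. They numbered 1 with the deposited value table or interval probes as separate features, 8 with the replicate block, and 0 to 13 with an array left out. The replicate numbers in the titles are not said to mark a litter or day, and the deviations of same-numbered samples correlated at 0.0037 over features, so the block is given here only. Sema3d lost its call with no intensity trend alone among settings with all arrays, and Sema3g with the mean over probes alone. Signal over background limits Robo4, Sema5b, Sema7a, Ephb1 and Epha8, whose wild-type level on at least 1 array is a bound.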
